A study of Mus musculus with 5 samples.

Results

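The genes described here encode the actin, tubulin and contractile cytoskeleton of mouse 3T3-L1 adipocytes. They were taken by name from a list of 43 genes, of which 42 had a named probe set among the 19505 genes named on the array. Actg1, the gamma-actin gene, had none under its symbol or gene ID and is not analysed here. The list falls into 24 measured actin and contractile genes (actins, actin-binding proteins, tropomyosins, myosin chains, crosslinkers and the transcription factor gene Srf), 16 tubulin and gamma-tubulin complex genes, and the intermediate filament genes Vim and Des. The comparison asks whether these genes differed when myeloma cells shared the adipocytes' medium, and whether the actin genes differed from the tubulin genes in that respect.

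3T3-L1 is a mouse fibroblast line that becomes fat cells in culture, and 1 Clariom S array was run for each of 5 RNA samples. In the 3 exposed samples, differentiated adipocytes were kept for 72 h in RPMI-1640 with serum together with MM.1S, a human multiple myeloma line, on the far side of a transwell membrane with 0.4 µm pores. The 2 control samples had the same medium for the same time without myeloma cells. All 5 had first grown in basal medium for 4 days, been differentiated with IBMX, dexamethasone and insulin (4 days) and with insulin only (2 days), and rested in basal medium (1 day). Each group is thus 1 cell line, and the labels do not say that its replicates were separate cultures, so the p-values cover the spread between samples whose differences may be technical. In these bulk samples fewer cells of a type and less RNA per cell cannot be told apart. The array values are log2 levels per probe set, with medians from 4.80 to 4.88 per array, and the number of arrays limits the precision. The 10 measured adipocyte markers had mean levels from 3.17 to 12.4, with a median of 9.86. Among them Fabp4, the fatty acid carrier, and Lpl, the lipoprotein lipase gene, were at means of 12.4 and 12.1. The 10 measured preadipocyte and fibroblast markers had a median level of 9.71.

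Actin filaments and microtubules are polymers that give a cell its shape. Fibroblast-like preadipocytes carry actin stress fibres, bundles in which tropomyosin, alpha-actinin and non-muscle myosin sit on actin, and this network is taken apart and rebuilt at the cell cortex as the cells round up and fill with lipid. Free actin monomer holds back the coactivators of SRF, a transcription factor that binds a 10-base element called the CArG box in many actin and muscle genes. Microtubules grow from alpha- and beta-tubulin dimers and are started by a ring of gamma-tubulin held together by the gamma-tubulin complex proteins.

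The element itself is shown because, among listed genes with a promoter window, an exact match was found only in actin and contractile genes. Most of these had none in the window. RefSeq promoter windows (GRCm38.p6, 250 bases before to 50 after the start) were found for 35 of the 43 listed genes. The other 8 were Actb, Actg2, Tagln, Myh11, Tubb2b, Tubb6, Tubg1 and Tubgcp2. A CArG box on either strand occurred in 7 of 21 actin and contractile genes, or 33.3%, in 0 of 12 tubulin and gamma-tubulin complex genes and in neither Vim nor Des, against 1.81% of all 27025 genes with a window. Only exact matches were counted, that is CC, then A or T bases only, then GG, 10 bases in all. A gene counted without a box may hold a near-match, or a box outside the window, neither of which was looked for. A match describes these letters only. The windows run 5′ to 3′ on the gene's strand with the boxes in capitals, 25 bases on either side of them. Srf, which holds 2 boxes, is the gene of the factor that binds them.
Srf (chr17:46556190-46556269, minus strand): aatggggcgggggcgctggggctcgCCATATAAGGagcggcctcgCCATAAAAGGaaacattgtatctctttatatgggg
Actc1, cardiac actin (chr2:114052888-114052947, minus strand): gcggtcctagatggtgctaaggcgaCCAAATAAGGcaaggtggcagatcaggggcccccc
Acta1, skeletal muscle actin (chr8:123894814-123894873, minus strand): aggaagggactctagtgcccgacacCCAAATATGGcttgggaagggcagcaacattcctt
Actg1 (chr11:120348551-120348610, minus strand): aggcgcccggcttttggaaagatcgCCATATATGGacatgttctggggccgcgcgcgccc
Myl9, a regulatory myosin light chain (chr2:156775278-156775337, plus strand): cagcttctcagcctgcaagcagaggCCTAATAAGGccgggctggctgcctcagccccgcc
Myl6, an essential myosin light chain (chr10:128493025-128493084, minus strand): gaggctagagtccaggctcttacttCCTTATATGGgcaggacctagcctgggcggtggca
Cnn2, a calponin (chr10:79988519-79988578, plus strand): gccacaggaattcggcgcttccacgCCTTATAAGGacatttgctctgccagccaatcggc

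No cytoskeleton gene passed the test between exposed and control adipocytes. limma, fitted over all 22206 probe sets, called 0 of 42 genes higher and 0 lower at a Benjamini-Hochberg adjusted p under 0.05, against 0% of all probe sets in either direction. The smallest adjusted p among the 42 was 0.93. At an unadjusted p under 0.05 there were 0 higher genes, against 1.82% of all probe sets, and 2 lower genes, Cnn2 and Tubgcp5, against 1.68%. The 95% intervals of all 42 lay within a 2-fold difference on both sides, as did those of 92.9% of all probe sets.

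In mean, most of the genes lay slightly lower in exposed cells. The mean was lower for 33 genes and higher for 9, or 78.6% lower, where 50.1% of all probe sets were lower and 49.9% higher. Of the 11103 probe sets whose mean level reached the median of the table, called brighter probe sets below, 56.1% were lower. The median difference, exposed minus control, was -0.077 on the log2 scale, beside -0.00040 over all probe sets and -0.025 over the brighter ones. Differences were small in size: 20 of the 42 lay within 0.1 of 0, and 5 were beyond 0.3 in either direction. Exposed and control arrays did not overlap for 9 genes, all lower in exposed cells, or 21.4%, where 8.84% of all probe sets and 11.4% of the brighter ones were so. In the opposite direction there were 0 such genes, where the background was 8.5% of all probe sets and 7.03% of the brighter ones. These are descriptions of a list and carry no test.

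**Figure D1:**
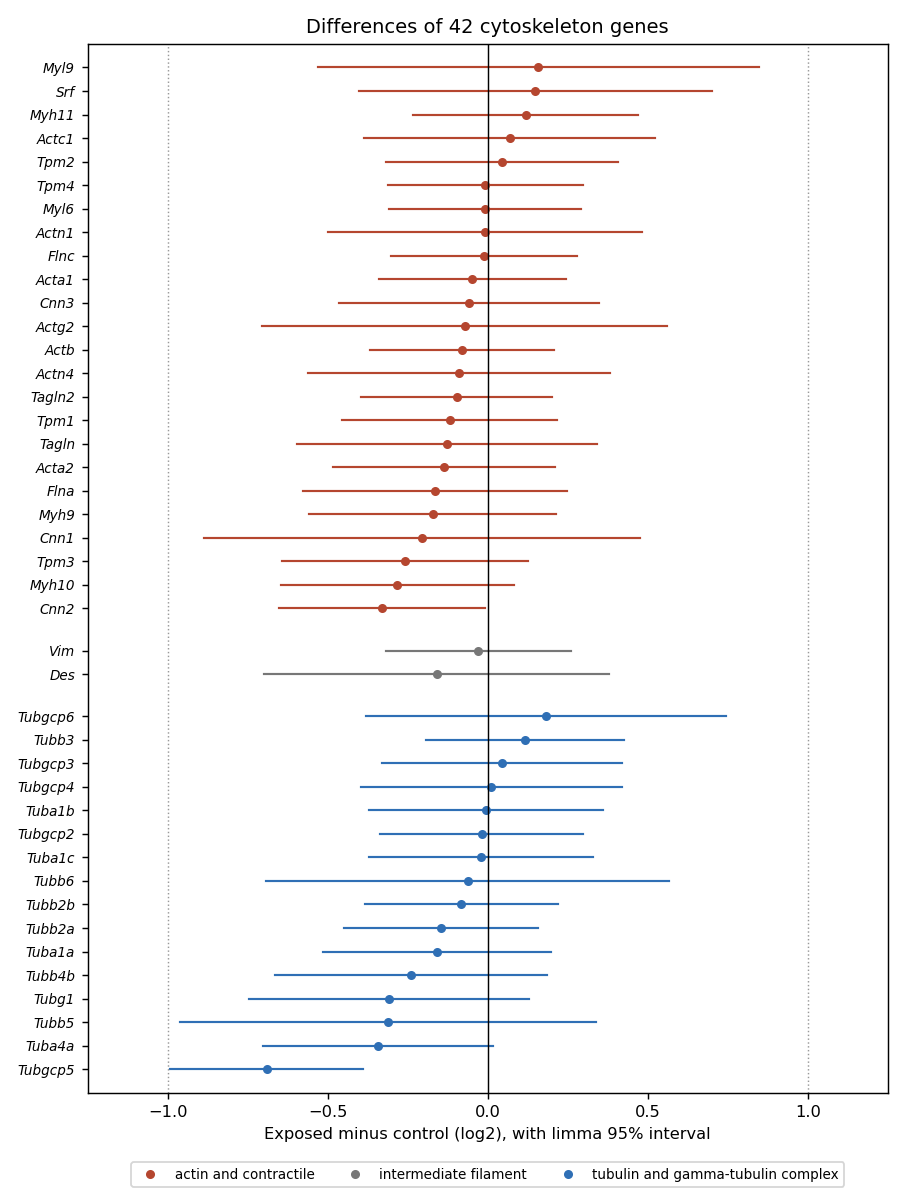
Exposed minus control difference (log2, horizontal axis) of each of the 42 measured genes, with limma's 95% interval as a line and dotted lines at a 2-fold difference; red, actin and contractile genes, grey, intermediate filament genes, blue, tubulin and gamma-tubulin complex genes. Of the 42 points, 33 lie left of 0, and no interval crosses a dotted line.

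Actin and contractile genes and tubulin genes shifted by nearly the same median. It was -0.077 for the 24 actin and contractile genes, of which 19 were lower and 5 higher, and -0.073 for the 16 tubulin and gamma-tubulin complex genes, of which 12 were lower and 4 higher. The actin median minus the tubulin median was -0.0038, and this difference became positive in most of the alternatives listed at the end. Within the tubulin group the median was -0.11 for alpha- and beta-tubulins and -0.0045 for the gamma-tubulin complex. With alpha- and beta-tubulins only, the actin median minus the tubulin median was 0.038. The tubulin group held 4 genes beyond 0.3, all lower (Tubgcp5, Tuba4a, Tubb5 and Tubg1), while the actin group held 1, Cnn2. By means instead of medians the groups stood at -0.073 and -0.13. The tubulin mean includes Tubgcp5 at -0.69, and the mean of the alpha- and beta-tubulins, which leaves that gene out, was also -0.13.

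**Figure D2:**
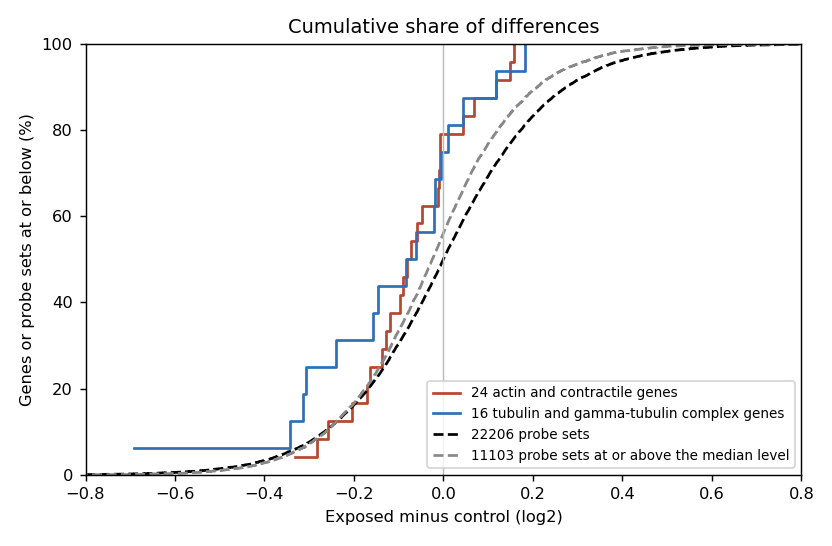
Cumulative share (percent, vertical axis) of genes or probe sets at or below a given exposed minus control difference (log2, horizontal axis) for actin and contractile genes, tubulin and gamma-tubulin complex genes, all probe sets and the brighter probe sets (mean at or above the median). Both gene groups cross the 50% line left of 0, at -0.077 and -0.073, and the lowest tubulin gene stands at -0.69 and the lowest actin gene at -0.33.

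The shift was next read array by array. For each gene the mean over the 5 arrays was subtracted, and the deviations were averaged per array. Actin and contractile genes stood at -0.022, 0.019 and -0.084 on exposed arrays 1, 2 and 3, against 0.11 and -0.022 on control arrays 1 and 2. By these averages only control array 1 lay above the exposed arrays, and it held the highest value of 12 of the 24 genes. By the median deviation instead, actin and contractile genes stood at -0.015, 0.0024 and -0.053 on the exposed arrays, against 0.080 and 0.017 on the control arrays, without overlap. Without control array 1 the median was -0.045, in a fit that left 1 control array, and without exposed array 3 it was -0.040. Tubulin and gamma-tubulin complex genes stood at -0.10, -0.019 and -0.030 on the exposed arrays, against 0.052 and 0.10 on the control arrays, so that exposed and control arrays did not overlap. Their median deviations, -0.079, -0.0096 and -0.043 against 0.028 and 0.076, did not overlap either, and the difference between the actin and tubulin patterns was not tested. Exposed array 1 held the lowest value of 8 of the 16 tubulin genes and control array 2 the highest of 6. The brighter probe sets ran from -0.045 on exposed array 1 to 0.027 on control array 1. The low value of exposed array 1 was thus shared by the brighter probe sets as a whole, and its part in the result was not tested.

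**Figure D3:**
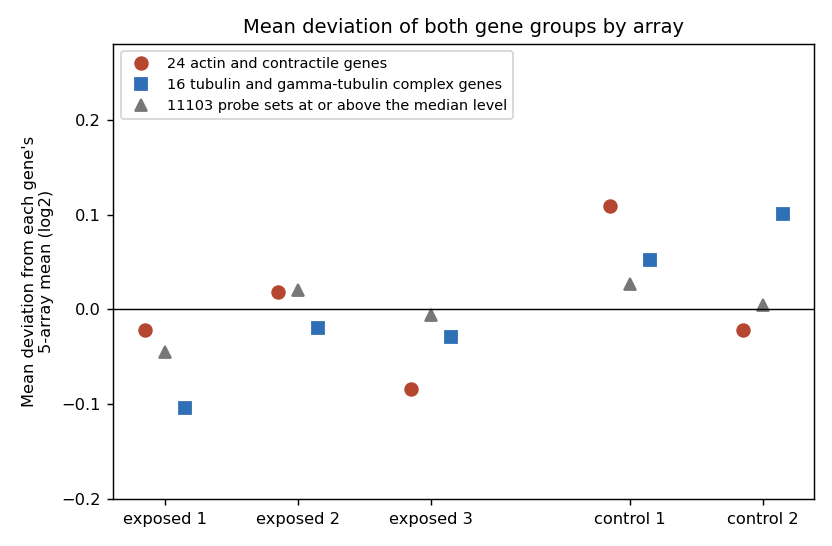
Mean deviation from each gene's 5-array mean (log2, vertical axis) on each array, for the 24 actin and contractile genes (circles), the 16 tubulin and gamma-tubulin complex genes (squares) and the 11103 brighter probe sets (triangles). The squares lie below 0 on all exposed arrays and above 0 on both control arrays, while the circles of control array 2 and exposed array 1 coincide at -0.022.

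Of the 5 measured actin isoforms, 4 had a lower mean in exposed cells and 1, the cardiac form Actc1, a higher one, and none passed the test. Actb, the beta-actin gene often used as a loading control, was at 12.08, 12.15 and 12.10 on exposed arrays and 12.17 and 12.21 on control arrays. The groups did not overlap, and the difference was -0.081 (95% interval -0.37 to 0.21), or 0.945 times the control level. Acta2, alpha smooth muscle actin and a usual mark of myofibroblasts, was at 9.54, 9.52 and 9.27 against 9.64 and 9.52, a difference of -0.14 (-0.48 to 0.21) to which exposed array 3 contributed the lowest value. Actc1 was at 6.42, 5.89 and 6.29 against 6.18 and 6.08, with overlapping groups and a difference of 0.068. Acta1 differed by -0.048 and Actg2, enteric smooth muscle actin, by -0.072. The values of Actg2 ran from 6.11 to 6.95 on exposed arrays, highest on exposed array 1, and from 6.48 to 6.55 on control arrays. Its difference was -0.33 without exposed array 1, 0.016 without exposed array 2 and 0.095 without exposed array 3.

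Transgelins and calponins, which bind along actin filaments and are plentiful in contractile cells, were lower in mean for 5 of 5 genes, with a median of -0.13. Cnn2, a calponin also found in non-muscle cells, was at 6.72, 6.63 and 6.77 on exposed arrays and 7.14 and 6.94 on control arrays. Every exposed value lay below both control values, and the difference was -0.33 (-0.65 to -0.0093), with an unadjusted p of 0.0454 and a limma adjusted p of 0.93. Cnn1, the smooth muscle calponin, was at 3.80, 3.77 and 2.94 against 3.77 and 3.65, and only exposed array 3 stood low. Tagln, an SRF target of smooth muscle, was at 5.48, 5.35 and 5.07 against 5.64 and 5.22, with overlapping groups and a difference of -0.13 (-0.60 to 0.34). Tagln2 did not overlap between groups at a difference of -0.097, and Cnn3 overlapped at -0.059.

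Tropomyosins, which wrap actin filaments and steer myosin to them, were lower for 3 of 4 genes. Tpm3 was at 9.99, 10.07 and 10.06 on exposed arrays and 10.50 and 10.10 on control arrays, so that its difference of -0.26 (-0.64 to 0.13) came mostly from control array 1. Tpm1 differed by -0.12, Tpm2 by 0.044 and Tpm4 by -0.0074, each with overlapping groups.

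Myosin chains were split. Myh10, the heavy chain of non-muscle myosin IIB, was at 6.88, 7.22 and 7.13 on exposed arrays and 7.40 and 7.32 on control arrays, a difference of -0.28 (-0.65 to 0.081) without overlap. Myh9, the heavy chain of non-muscle myosin IIA, was at 8.82, 8.99 and 9.05 against 9.30 and 8.96, a difference of -0.17 (-0.56 to 0.21) with overlap that was -0.0013 without control array 1. Both encode the motors that pull on stress fibres. Myh11, the smooth muscle heavy chain, was at 4.56, 4.50 and 4.50 against 4.24 and 4.56, and its difference of 0.12 rests on control array 1. Myl9 was at 5.74, 6.64 and 5.82 against 5.91 on both control arrays. Its mean difference of 0.16 thus came from exposed array 2, and without that array it was -0.13. Myl6 differed by -0.0084.

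Crosslinkers of actin filaments were lower in mean for 4 of 4 genes, none without overlap. Flna, the filamin A gene, differed by -0.16, Actn4 by -0.091, Flnc, the muscle filamin, by -0.012 and Actn1 by -0.0093. Actn1 shows how far 2 control arrays can part: they read 6.66 and 6.05, around exposed values of 6.25, 6.39 and 6.39. Srf itself was at 6.01, 6.63 and 6.41 on exposed arrays and 6.40 and 5.998 on control arrays, a difference of 0.15 (-0.40 to 0.70) with overlapping groups. The 6 measured genes with a CArG box in the window were 3 higher and 3 lower, with a median of 0.030. The 14 measured actin and contractile genes whose window held none were 1 higher and 13 lower, with a median of -0.11. The subsets with and without a box also differed in brightness, with median levels of 6.23 and 9.04. Of the 14 members of the whole list at level 9 or above, 13 were lower and 1 higher. Of the 7 members below level 5, 3 were lower and 4 higher. The subsets were divided by sequence, and neither the difference between them nor the part of level in it was tested.

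Both intermediate filament genes were lower in mean, with overlapping groups. Vim, the vimentin gene of fibroblasts and preadipocytes, was at 12.26, 12.32 and 12.35 on exposed arrays and 12.35 and 12.32 on control arrays, a difference of -0.029 (-0.32 to 0.26). Des, the desmin gene of muscle, was at 6.63, 6.76 and 6.08 against 6.63 and 6.67, and only exposed array 3 lay apart.

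**Figure D4:**
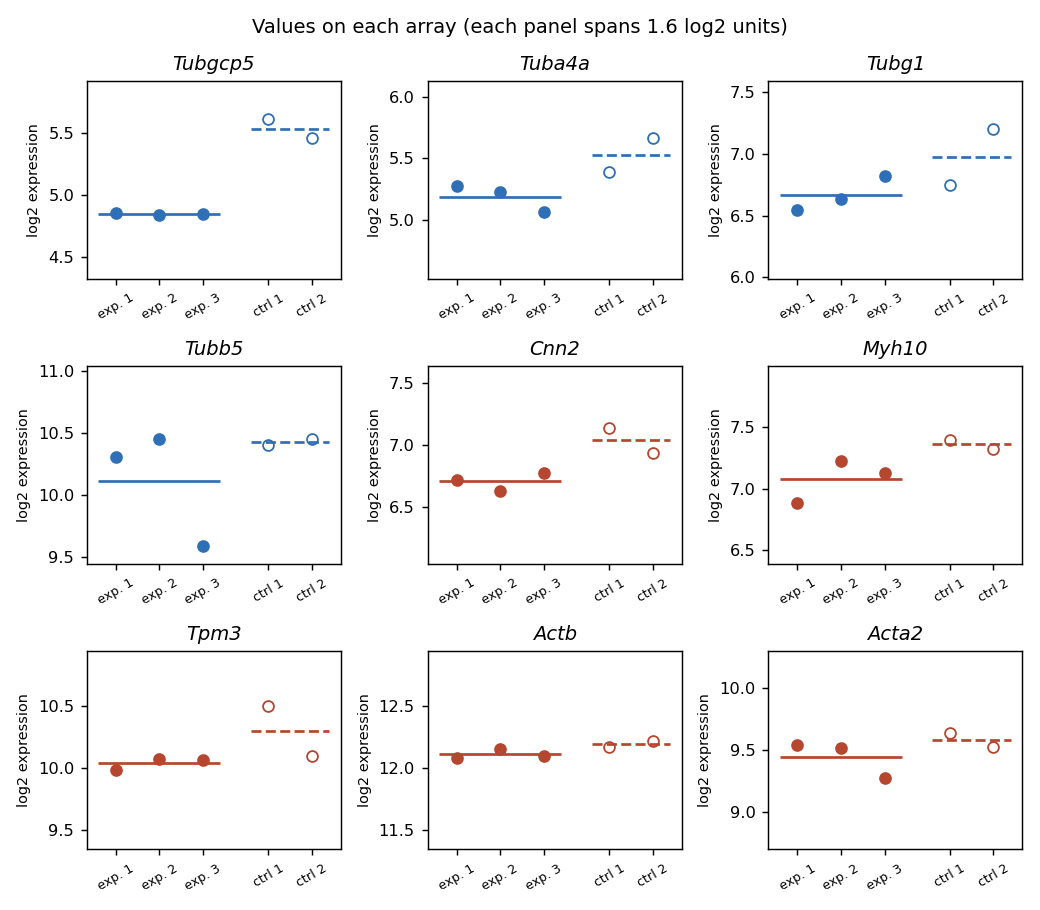
Log2 expression (vertical axis) of 9 genes on each array; filled points, the 3 exposed arrays, open points, the 2 control arrays, lines, group means, with every panel spanning the same height. Tubgcp5 reads 4.84 to 4.85 on exposed arrays and 5.46 to 5.62 on control arrays, and the exposed mean of Tubb5 is pulled down by the value of 9.59 on exposed array 3.

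Alpha-tubulin genes were lower in mean for 4 of 4, with a median of -0.090. Tuba4a, an isotype of muscle, brain and platelets, was at 5.27, 5.23 and 5.07 on exposed arrays and 5.39 and 5.67 on control arrays. The groups did not overlap, and the difference was -0.34 (-0.70 to 0.017). Tuba1a, the main isotype of developing neurons and also present in fibroblasts, was at 8.42, 8.41 and 8.12 against 8.44 and 8.51, a difference of -0.16 (-0.51 to 0.20) without overlap. Tuba1b, a ubiquitous isotype, was at 10.43, 10.65 and 10.30 against 10.50 and 10.43, with overlap and a difference of -0.0066. Tuba1c differed by -0.021. On all 4 alpha-tubulin genes exposed array 3 held the lowest value.

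Beta-tubulin genes were lower for 5 of 6, with a median of -0.11. Tubb5, a ubiquitous isotype, was at 10.31, 10.45 and 9.59 on exposed arrays and 10.41 and 10.45 on control arrays. Its difference of -0.31 (-0.96 to 0.34) therefore rests on exposed array 3, without which it was -0.049. Tubb3, the neuronal isotype, was at 4.75, 4.78 and 4.85 against 4.77 and 4.59, a difference of 0.12 with overlap. Tubb2a did not overlap at -0.15, whereas Tubb4b (-0.24) and Tubb6 (-0.063) did. Tubb6 ranged from 6.34 to 7.17 on exposed arrays alone, wider than any difference between group means on the list. Tubb2b read 3.15 on 4 of 5 arrays and 3.31 on control array 2. Such ties, found for 9 of the 42 genes, are common in this table (27.2% of probe sets) and leave no difference to read between those arrays. Actins and tubulins are families of closely similar genes, and whether the probes tell the members apart was not tested.

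Genes of the gamma-tubulin complex were split, with 3 lower and 3 higher in mean and a median of -0.0045. Tubgcp5 was at 4.85, 4.84 and 4.85 on exposed arrays and 5.62 and 5.46 on control arrays, 4.85 ± 0.0094 (SD, n = 3) against 5.54 ± 0.11 (SD, n = 2). It encodes one of the less abundant subunits of the ring. Its difference of -0.69 (-0.99 to -0.39) was the largest of the 42, with an unadjusted p of 0.00126, the 8th lowest of all 22206 probe sets, and a limma adjusted p of 0.93. With 1 array left out the difference ran from -0.77 to -0.61. The exposed values of Tubgcp5 lay close to the table's median level of 4.81, and their distance from background is unknown without detection calls. Tubg1, gamma-tubulin itself, was at 6.55, 6.63 and 6.82 against 6.75 and 7.20, and its difference of -0.31 (-0.75 to 0.13) leans on control array 2. The core subunits Tubgcp2 and Tubgcp3, which build the small gamma-tubulin complex, had overlapping groups. Tubgcp2 was at 7.91, 8.02 and 8.09 against 7.96 and 8.09, a difference of -0.020 (-0.34 to 0.30). Tubgcp3 was at 4.81, 4.93 and 5.19 against 4.93 on both control arrays, a difference of 0.045. Tubgcp4 and Tubgcp6, which with Tubgcp5 are found only in the full ring, lay on the other side of 0 in mean. Tubgcp4 was at 7.14, 6.72 and 6.84 against 6.97 and 6.80, a difference of 0.011 (-0.40 to 0.42). Tubgcp6 was at 2.67, 2.85 and 3.41 against 2.82 and 2.77, a difference of 0.18 (-0.38 to 0.74) that came from exposed array 3 at a dim level. The intervals of the other 5 genes include 0, and the difference between Tubgcp5 and its partners was not tested.

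In 6 lists of other cytoskeleton genes the shifts were small as well, with 0 called genes by limma. Of 29 genes of actin filament turnover 20 were lower (median -0.058), among them the capping protein genes Capza2 (-0.30) and Capza1 (-0.29), while Arpc4, of the filament-branching Arp2/3 complex, differed by 0.15. SRF coactivators and targets were lower for 16 of 22 (median -0.12). There the immediate-early gene Egr1 differed by -0.38 and Fosb, another, by 0.53. Other tubulins and tubulin-folding genes were lower for 15 of 26 (median -0.025), with the cofactor gene Tbce at -0.56, due to exposed array 1 at 4.56 beside 5.68 to 6.01 elsewhere, and Tubb1, the platelet isotype, at 0.28. Genes of microtubule nucleation and the centrosome, the nearest relatives of the gamma-tubulin complex, were 9 lower and 8 higher (median -0.018), with Pcm1 at -0.26 and Ninl at 0.46. Microtubule-binding and modifying genes were lower for 17 of 28 (median -0.061), with Mapre2 at -0.65 and Map2 at 0.38. Other intermediate filament genes were lower for 6 of 11 (median -0.032), from Synm at -0.42 to the lamin gene Lmnb2 at 0.31. Most of these single differences leaned on 1 array. Without exposed array 1 the difference of Egr1 was -0.090, that of Fosb 0.30, that of Tbce -0.16, that of Tubb1 0.13 and that of Map2 0.14. Without exposed array 3 Capza2 stood at -0.11 and Capza1 at -0.14. Without control array 1 Pcm1 stood at -0.066, Mapre2 at -0.33 and Synm at -0.032, and Lmnb2 turned to -0.10. Ninl ranged from 0.32 to 0.54 and Arpc4 from 0.11 to 0.20 with 1 array left out.

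**Figure D5:**
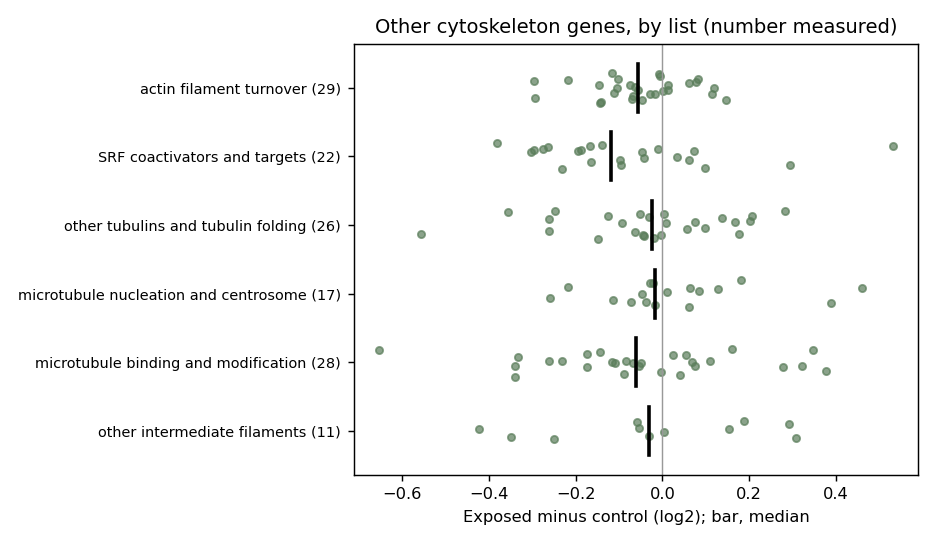
Exposed minus control difference (log2, horizontal axis) of each measured gene in 6 lists of other cytoskeleton genes, with the list's median as a bar; vertical scatter within a row only separates the points. All 6 medians lie left of 0, between -0.12 and -0.018, and each list has genes on both sides.

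Marker lists of other cells were read on the same arrays. Preadipocyte and fibroblast markers, which share the actin-rich cell shape, were lower for 9 of 10 genes (median -0.10), and their mean level was 9.28 to 9.42 on exposed arrays, below 9.44 to 9.46 on control arrays; Dlk1, the preadipocyte factor, differed by -0.28. Their 2 genes of highest mean, Fn1 and Dcn, were at mean levels of 10.99 and 10.89. Cycling-cell markers, whose cells build spindles from tubulin, were lower for 11 of 13 (median -0.13), with mean levels of 5.81 to 5.98 against 6.03 to 6.08, Bub1 at -0.64, and Birc5 and Cdk1 read at 7.35 and 7.18. Smooth muscle and pericyte markers, which include the members Myh11 and Cnn1, were lower for 8 of 11 (median -0.12), with overlapping mean levels of 4.40 to 4.59 against 4.52 to 4.65. Their transcription factor gene Myocd was at 2.98, Smtn and Mylk at 7.12 and 6.86, and Synpo2 differed by -0.33. All 3 of these lists had medians below 0, as the cytoskeleton genes did. So had the B and plasma cell list (-0.034) and the adipocyte list (-0.025). The skeletal and cardiac muscle, neuron and macrophage lists had medians above 0 (0.16, 0.14 and 0.058). The part of any of these cells in the result was not tested. Skeletal and cardiac muscle markers were higher for 10 of 14 at mean levels of 3.49 to 3.61 against 3.41 to 3.42, with Mylpf at 0.40 and Tnni2 and Myog read at 4.21 and 4.16. Neuron markers were higher for 5 of 8 (3.78 to 4.09 against 3.89 to 3.91), with Gap43 at -0.47 and Map2 and Gap43 read at 6.60 and 5.92. B and plasma cell markers, 4 higher and 4 lower, read 3.96 to 4.23 against 4.03 to 4.20. Of these, Xbp1 and Sdc1, which other cells also express, were at 8.78 and 7.49, and Cd79b and Mzb1 each differed by -0.37. Without control array 2 Cd79b stood at 0.23, and without control array 1 Mzb1 stood at -0.029. Macrophage markers were higher for 4 of 7 (3.35 to 3.51 against 3.26 to 3.59), with Lyz2 and C1qc read at 5.02 and 3.75 and C1qa at -0.51. Adipocyte markers were lower for 7 of 10 with a median of -0.025, at 9.02 to 9.12 against 9.10 on both control arrays, and Retn, the resistin gene, differed by 0.46.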

How the data were processed

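Values were the log2 expression levels deposited by the authors, 1 per probe set and array (22206 probe sets, 5 arrays), made with Partek and RMA (background correction, quantile normalization, probe summary), as the submitters' processing notes name them. No version or annotation build is given in the sources used here, and the table carries no detection calls. RMA compresses differences between dim signals. Gene symbols came from the platform annotation (19572 probe sets with 1 symbol, 2634 without a single symbol). Each member had a single probe set. Groups came from the sample descriptions (3 exposed, 2 control). The comparison used limma 3.58.1 under R 4.3.3 (lmFit, eBayes, group only, two-sided, all probe sets, Benjamini-Hochberg, 3 residual degrees of freedom, prior 3.17). On simulated data its mean estimates were checked for no change and for changes larger than any member showed. Whether differences as small as those of the members could be called was not checked. Members and lists were chosen with earlier results of these data known, so lists are described by counts and medians and not tested. Shown on all arrays are the 4 genes with the largest difference per direction in each of the actin and tubulin groups and 17 genes picked by name, Actg1 among them; from other lists, the genes with the largest differences, and from marker lists also the 2 with the highest mean. Actg2, Actn1 and other genes outside this rule were picked after their values were seen. Likeness between genes over arrays was left out, because 5 arrays are too few for a correlation. Promoters are RefSeq GRCm38.p6. Alternatives were leaving out each array, a replicate block, array weights, median centring, a level filter, a trended prior, averaging the probe sets of a gene, and other groupings of the members. Of the lists of other cytoskeleton genes, 1 is not reported here.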

Additional observations from a re-analysis of the deposited data

How the results depend on the processing

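No alternative called a member or any other probe set at an adjusted p under 0.05; at an unadjusted p under 0.05, limma gave 776 probe sets and 2 members. The median of the actin and contractile genes was -0.093 to -0.040 and that of the tubulin genes -0.11 to -0.058 with 1 array left out, and the first minus the second was -0.035 to 0.067. Where 1 control array was left, its spread was taken from the exposed arrays. The tubulin median was -0.15 among members that reached the table's median level, where fewer genes were counted, and -0.13 as a mean. With the replicate number as a block (replicate block), which leaves exposed array 3 without a partner and so gives the values without it, the medians were -0.040 and -0.062. Deviations of same-numbered arrays from their group means had correlations of -0.014 and -0.032 over probe sets. With 2 control arrays the deviations of 1 mirror those of the other, so these values cannot decide whether the numbers mark pairs. The labels do not call the arrays pairs, and the numbers were not taken as such. Of the 42 members 19 did not change sign in any alternative, although Tubb2b stood at 0 without control array 2. The level filter, the trended prior and averaging of probe sets left the differences of single members as they were and could not change a sign. The block turned Actg2 (0.095), Cnn1 (0.076), Tpm2 (-0.047), Myl6 (0.033), Des (0.046), Actn4 (0.069), Tuba1b (0.075), Tuba1c (0.048), Tubgcp3 (-0.062) and Tubgcp6 (-0.034). Array weights turned Actc1 (-0.017), Myl6 (0.0089), Actn1 (0.0033), Tuba1b (0.046), Tuba1c (0.028) and Tubgcp4 (-0.039), and median centring turned Tubgcp4 (-0.0074). With 1 array left out the ranges that crossed 0 were Actg2 -0.33 to 0.095, Actc1 -0.042 to 0.22, Tagln -0.34 to 0.080, Cnn1 -0.35 to 0.076, Cnn3 -0.17 to 0.045, Tpm2 -0.047 to 0.13, Tpm4 -0.085 to 0.070, Myl6 -0.040 to 0.033, Myl9 -0.13 to 0.32, Myh11 -0.043 to 0.28, Des -0.30 to 0.046, Flna -0.35 to 0.018, Flnc -0.059 to 0.036, Actn1 -0.32 to 0.30, Actn4 -0.23 to 0.069, Srf -0.053 to 0.35, Tuba1b -0.10 to 0.075, Tuba1c -0.11 to 0.048, Tubb6 -0.31 to 0.10, Tubgcp2 -0.087 to 0.048, Tubgcp3 -0.062 to 0.13, Tubgcp4 -0.11 to 0.10 and Tubgcp6 -0.034 to 0.34. The cause of these changes was not tested beyond the arrays named. Depth in the sense of signal over background is unknown without detection calls, and values of dim genes such as Tubgcp6 and Tubb2b limit the difference in array signal more than that in RNA.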
